A study of Homo sapiens with 24 samples.

Results

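Gene expression was followed over 4 ordered levels of the transcription factor GATA1 in K562 cells, a human erythroleukaemia line. All cells carried a catalytically dead Cas9 joined to the KRAB repressor under a doxycycline-inducible promoter, a system for CRISPR interference (CRISPRi), and received doxycycline for 24 hours and 1 single guide RNA (sgRNA). The study asked what happens when a putative enhancer of GATA1, eHDAC6, is repressed, beside repression of the GATA1 start site (GATA1TSS). The levels were made of 16 of its 24 libraries and are named by their sgRNAs. They were NC (4 libraries with non-targeting sgRNAs, replicates 2 and 3 of NC-Guide3 and NC-Guide4), eHDAC6 (6 libraries, 3 each of eHDAC6-Guide1 and eHDAC6-Guide2), GATA1TSS-Guide1 (3) and GATA1TSS-Guide2 (3). Each library came from 1 of 3 biological replicates of its sgRNA and from 10000 lysed cells. The levels were ordered by the measured GATA1 level, so GATA1 itself is described and not tested. The genes followed were the 9928 of 21925 with a mean of 5 CPM or more over the 16 libraries, CPM being counts scaled to a common library total. Just inside that limit were LOC648987 at 5.009, SPDYE5 at 5.01 and LLPH-AS1 at 5.011 CPM, and just outside it HEXIM2 at 4.998, ANKRD20A2 at 4.997 and LINC01122 at 4.993 CPM.

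GATA1 is a zinc-finger protein that binds GATA motifs in promoters and enhancers, often in a complex with TAL1, LMO2 and LDB1, and activates genes of the red cell and megakaryocyte lineages. It acts with KLF1 on genes for heme synthesis, the red cell membrane and globins, and it restrains genes of the progenitor state and of myeloid cells. A gene can follow the amount of such a factor in proportion, can hold its level until the factor is nearly gone, or can respond to the first small loss and then stay level.

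The libraries held 4290343 to 23205811 counts, and the lowest total belonged to GATA1TSS-Guide2 replicate 2, which also stood apart from its replicates on the first 2 principal components. K562 markers were present in all 16 libraries, with TAL1 at 154.1 to 244.1 CPM and ALAS2 at 198.4 to 422.1 CPM. The 4 control libraries were chosen by an earlier look at expression, and not by any label, and the other 8 stand apart from them. GATA1 did not separate the other 8 as a group (276 to 391 CPM, median 370) from the 4 (353 to 384 CPM). The lowest of the 8 lay near the eHDAC6 libraries (243 to 268 CPM). Every value set against NC rests on that choice, and for the main gene lists and many of the genes described the values with all 12 control libraries are given beside it. Estimates of differences among the 12 targeted libraries do not use NC levels, but their tests share the estimate of the spread with the controls and their calls move with it. Both GATA1TSS levels rest on a single sgRNA each, so the level and the sgRNA cannot be told apart there.

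GATA1 (chrX:48644982-48652717 on the plus strand in hg19) stood at 362, 371, 384 and 353 CPM in the NC libraries. The eHDAC6 libraries lay between 243 and 268 CPM, with a median of 254. GATA1TSS-Guide1 gave 132, 97.5 and 125 CPM, and GATA1TSS-Guide2 gave 60.8, 41.8 and 57.4 CPM. No library of one level overlapped another level. The means were 367.5 ± 13.1 (SD, n = 4), 254.1 ± 8.93 (n = 6), 117.9 ± 18 (n = 3) and 53.3 ± 10.2 CPM (n = 3), and the targeted levels kept 69.1%, 32.1% and 14.5% of the NC mean. On the log2 scale the steps down were 0.53, 1.11 and 1.14. In CPM they were 113.4, 136.2 and 64.6, so the last step was among the larger ones in proportion and the smallest in amount.

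**Figure D1:**
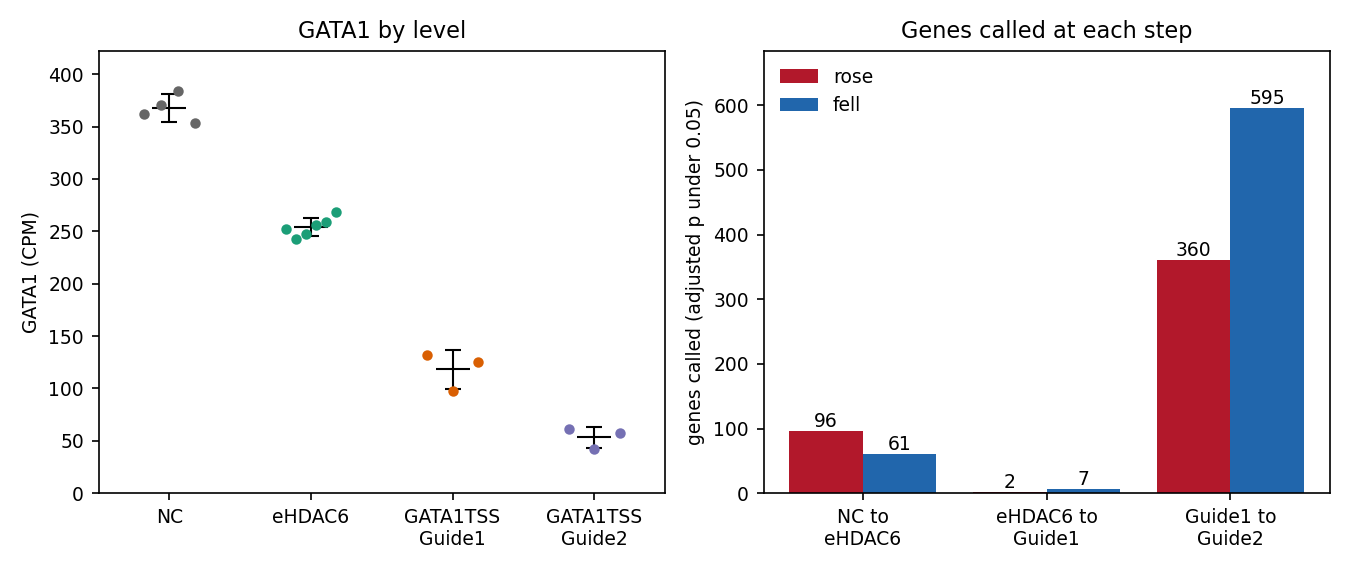
GATA1 in CPM for each library of the 4 levels (left; points are libraries, bars mean ± SD) and the number of genes called at each step between neighbouring levels (right; red rose, blue fell as GATA1 fell). GATA1 falls from 367.5 to 53.3 CPM without overlap, while the genes called number 157, 9 and 955 over the steps.

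The genes that differed between neighbouring levels were spread unevenly over the 3 steps. From NC to eHDAC6, 157 genes (1.58% of those tested) differed at an edgeR adjusted p under 0.05, 96 higher (0.967%) and 61 lower (0.614%). From eHDAC6 to GATA1TSS-Guide1, where GATA1 lost the most CPM, 9 genes (0.0907%) differed, 2 higher (0.0201%) and 7 lower (0.0705%), and 1013 had an unadjusted p under 0.05. From GATA1TSS-Guide1 to GATA1TSS-Guide2, 955 genes (9.62%) differed, 360 higher (3.63%) and 595 lower (5.99%). This last step compares 3 libraries with 3 and the one before it 6 with 3. With all 12 control libraries in the fit the counts were 2920, 3 and 180. The last pair of these contrasts holds no control library, and the controls enter it through the shared estimate of the spread. With no control library in the fit the same pair of counts was 7 and 1021. Counted by libraries that did not overlap, 193 genes rose (1.94%) and 251 fell (2.53%) at the first step, 347 (3.5%) and 218 (2.2%) at the second, and 1120 (11.3%) and 1644 (16.6%) at the last; groups of 3 libraries fall apart more easily than larger ones. Taken against NC directly, GATA1TSS-Guide1 called 25 genes (0.252%), 18 higher (0.181%) and 7 lower (0.0705%), and GATA1TSS-Guide2 2205 (22.2%), 976 higher (9.83%) and 1229 lower (12.4%).

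Across the whole series of levels, 1727 genes (17.4%) differed in a test that takes no order into account. A line over log2 GATA1 called 1722 genes (17.3%), of which 796 (8.02%) rose and 926 (9.33%) fell as GATA1 fell. Over the 12 targeted libraries alone the line called 1316 genes (13.3%), 533 rising (5.37%) and 783 falling (7.89%). Without the GATA1TSS-Guide2 libraries it called 12 genes: TNFRSF1A, TMEM158, LUZP1, STARD9, AHDC1, GP6 and the paired entries LINC00891 and LOC100132741 rising, and RAB3IL1, STAR, ZBTB1 and LOC102723809 falling. All of these but ZBTB1 and LOC102723809 were also called over the 4 levels. Without GATA1TSS-Guide2 replicate 1 the trend count was 1049 and without replicate 3 it was 1077. With counts summed per sgRNA, which puts the spread between sgRNAs in the error, 692 genes kept an adjusted p under 0.05 over the 4 levels and 179 over the targeted levels. Those counts come from fewer samples.

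Each of the 1727 genes was set against 4 shapes with 1 free parameter and given the one that left the lowest deviance. The shapes are a line over log2 GATA1, a step at eHDAC6 (early saturation), a step at GATA1TSS-Guide1, and a step at GATA1TSS-Guide2 (a threshold at the lowest level). The threshold at the lowest level took 857 genes (49.6%), 337 higher and 520 lower at GATA1TSS-Guide2 than in NC. The line took 519 (30.1%; 256 higher, 263 lower), early saturation 236 (13.7%) and the step at GATA1TSS-Guide1 115 (6.66%). The nearest shape was rarely the only one left. A gene's departure from early saturation was called for 1280 of the 1727 genes (74.1%) and from a step at GATA1TSS-Guide1 for 931 (53.9%), but from the line for 134 (7.76%; 1.35% of all genes tested) and from the threshold for 109 (6.31%). The commonest outcome, for 581 genes (33.6%), was that both the line and the threshold stood. Only 54 genes stood in the threshold shape alone, 18 in the line alone and 14 in early saturation alone, and 61 departed from all 4.

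**Figure D2:**
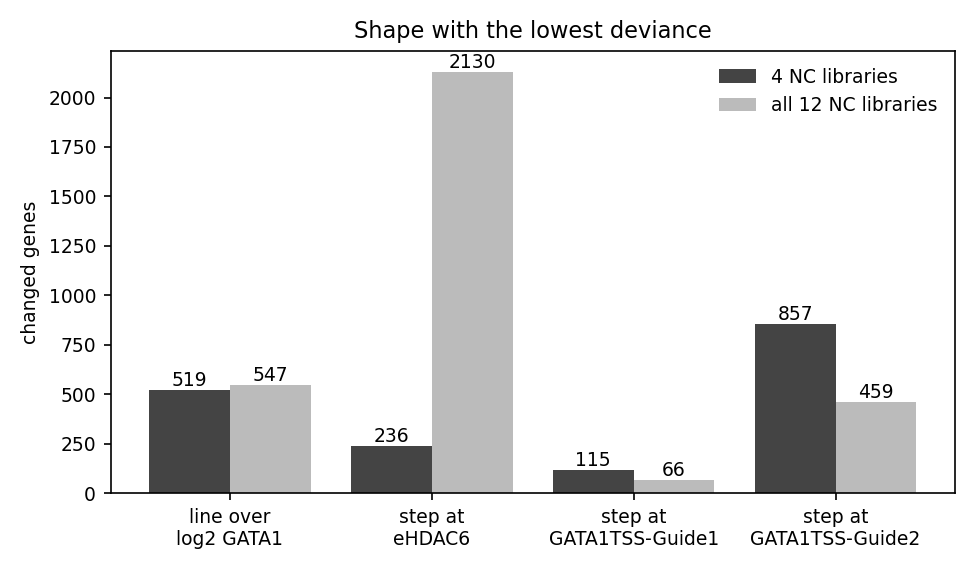
Number of changed genes by the shape with the lowest deviance, with the 4 NC libraries of the levels (dark, 1727 genes) and with all 12 control libraries (light, 3202 genes). The threshold at GATA1TSS-Guide2 is the commonest shape with 4 control libraries (857), and a step at eHDAC6 with 12 (2130).

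The shares of the shapes depended on the control libraries. With all 12, the line took 547 genes, early saturation 2130, the step at GATA1TSS-Guide1 66 and the threshold 459. When the levels were placed by GATA1 in CPM in place of its log2, the line took 354 of the changed genes and the threshold 999.

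A small group of genes lay in the order of GATA1 over the targeted levels. MYC, a transcription factor that drives cell growth, stood at 418, 380, 388 and 374 CPM in NC, between 318 and 389 in eHDAC6 (median 344), at 317, 308 and 307 with GATA1TSS-Guide1 and at 211, 206 and 219 with GATA1TSS-Guide2. The 3 targeted levels did not overlap, and NC overlapped eHDAC6 alone. MYC fell by 0.29 on the log2 scale per log2 unit of GATA1 lost (SE 0.027, edgeR adjusted p = 2.09e-07), and by 0.30 per unit over the targeted libraries alone (edgeR adjusted p = 2.76e-05). In the other 8 control libraries MYC lay at 426 to 461 CPM. No gene of the 9928 kept all 4 levels apart in order. The 3 targeted levels lay in order with no overlap for 21 rising genes (0.212%) and 28 falling ones (0.282%), among them MYC, EPOR, CALR, RPS12, CDKN2C, SLC20A1 and RAB3IL1.

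Of these, RAB3IL1, SLC20A1 and CALR, with TNFRSF1A below, were picked for the text after their values were seen. RAB3IL1, an exchange factor for Rab GTPases, stood at 51.7, 54.3, 46.5 and 47.2 CPM in NC, 38.7 to 46.9 in eHDAC6 (median 40.3), 36.9, 35.4 and 37.1 with GATA1TSS-Guide1 and 20.3, 22.8 and 20.5 with GATA1TSS-Guide2. It fell by 0.40 per log2 unit of GATA1 lost (SE 0.038, edgeR adjusted p = 2.66e-07). SLC20A1, a sodium-phosphate cotransporter, went the other way, from 179, 180, 194 and 195 CPM in NC through 183 to 207 in eHDAC6 (median 203) and 210, 250 and 228 with GATA1TSS-Guide1 to 310, 304 and 313 with GATA1TSS-Guide2. It rose by 0.26 per unit (SE 0.023, edgeR adjusted p = 1.54e-07). CALR, the endoplasmic reticulum chaperone calreticulin, fell over the targeted levels (-0.20 per unit, edgeR adjusted p = 9.24e-05). With all 12 control libraries its trend over the 4 levels was not called (edgeR adjusted p = 0.608), while those of MYC, RAB3IL1 and SLC20A1 were (edgeR adjusted p = 1.96e-09, 3.59e-07 and 1.36e-09).

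TNFRSF1A, the main receptor for tumour necrosis factor, moved already at the first step. It stood at 51.0, 40.9, 51.3 and 41.8 CPM in NC, 56.5 to 78.1 in eHDAC6 (median 67.3), 74.7, 91.9 and 78.7 with GATA1TSS-Guide1 and 105, 90.9 and 122 with GATA1TSS-Guide2. All targeted libraries were above all NC libraries, and neighbouring targeted levels overlapped. The steps were 0.54 (SE 0.095, edgeR adjusted p = 0.00335), 0.28 (edgeR adjusted p = 0.315) and 0.39 (edgeR adjusted p = 0.0337). The non-coding entry LINC00891 (chrX:70917046-70923256 in hg19), which shares every count with LOC100132741 on the same strand, rose from 6.35, 7.33, 8.50 and 7.90 CPM in NC through 6.85 to 11.9 in eHDAC6 (median 10.4) and 11.6, 19 and 13.4 to 28.9, 21.2 and 29.4 CPM. Its rise was 0.64 per log2 unit of GATA1 lost (SE 0.056, edgeR adjusted p = 1.14e-07) and is 1 result, not 2. Both TNFRSF1A and LINC00891 stood in the line shape alone with the NC libraries of the levels. The trends of both were also called with all 12 control libraries (edgeR adjusted p = 5.07e-08 and 2.41e-09). In that fit eHDAC6 lay 0.308 above the line between NC and GATA1TSS-Guide1 for TNFRSF1A (edgeR adjusted p = 0.0118). For LINC00891 the distance was 0.0227 (edgeR adjusted p = 0.919).

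**Figure D3:**
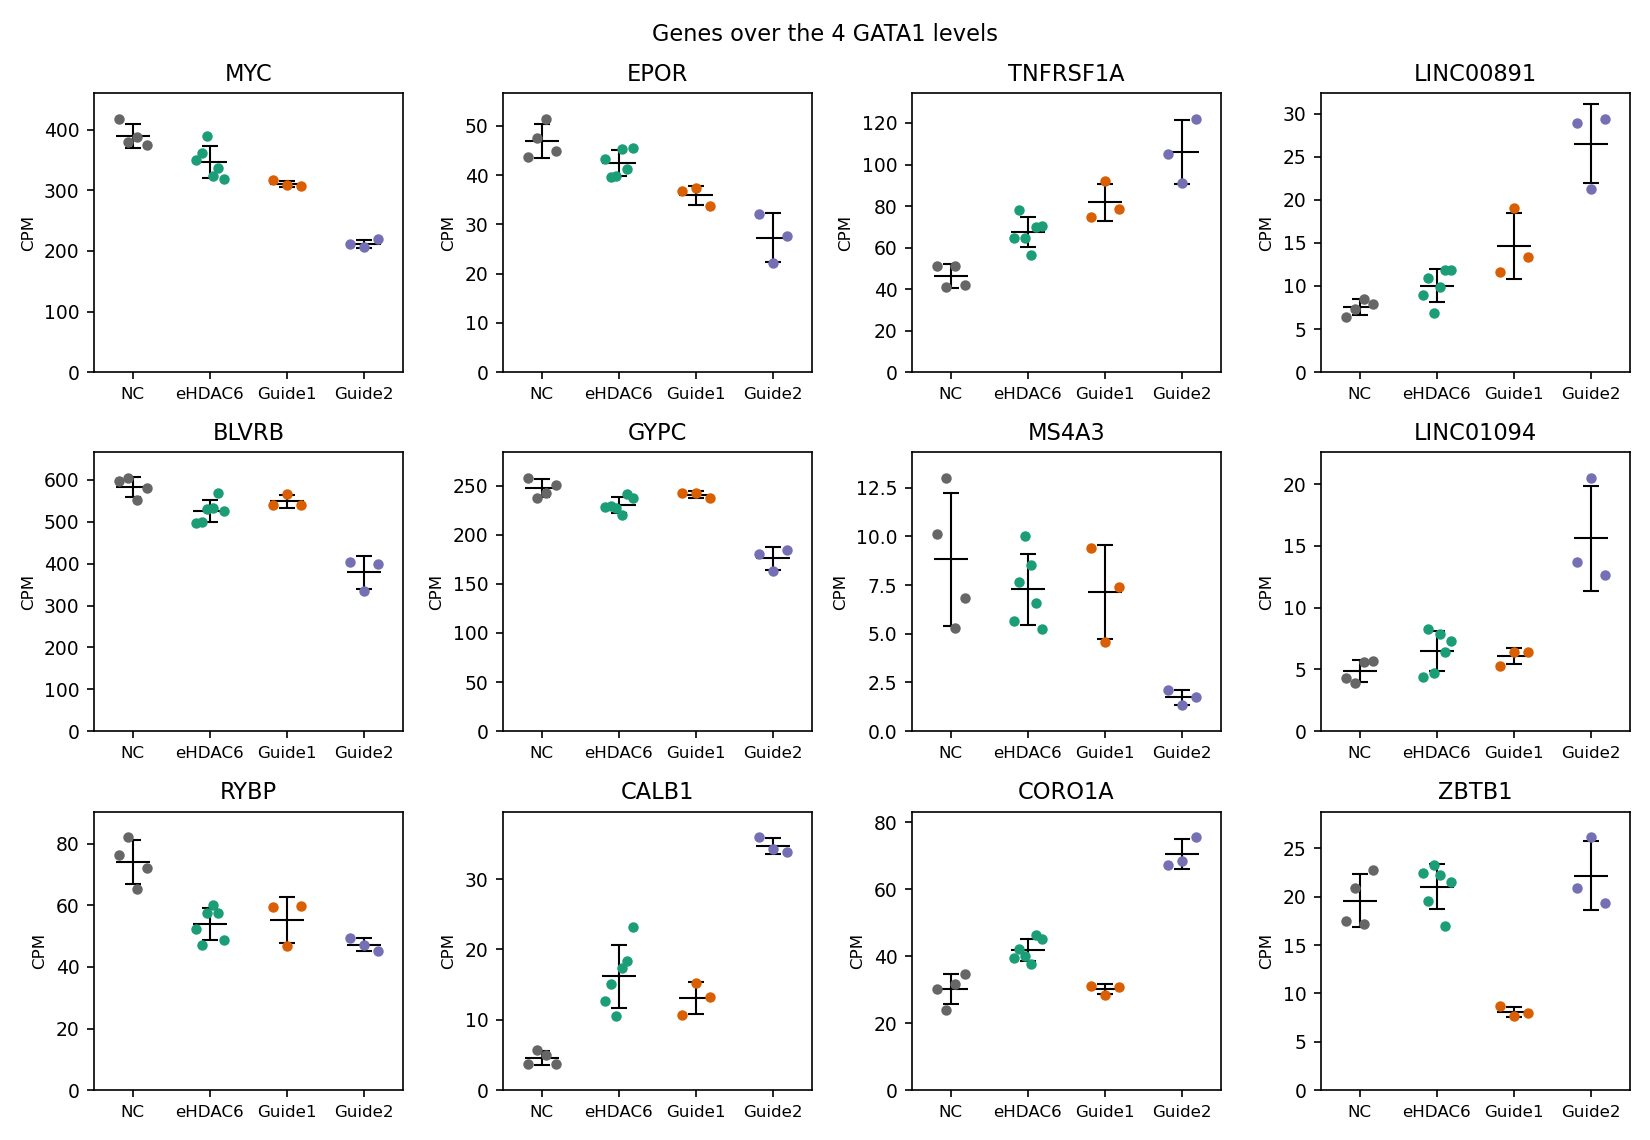
CPM of 12 genes in each library of the 4 levels (points; bars mean ± SD; each axis starts at 0). The top row holds genes nearest a line (MYC, EPOR, TNFRSF1A, LINC00891) and the middle row genes nearest a threshold at GATA1TSS-Guide2 (BLVRB, GYPC, MS4A3, LINC01094). The bottom row shows RYBP, which is lower from eHDAC6 on, and CALB1, which is higher at every targeted level than in NC. It also shows CORO1A, which is higher at eHDAC6 and GATA1TSS-Guide2, and ZBTB1, which is low with GATA1TSS-Guide1 alone.

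Among 13 tested regulators of the erythroid program, 5 fell along the line (KLF1, NFE2, TAL1, LDB1 and EPOR), none rose, and the same 5 fell from GATA1TSS-Guide1 to GATA1TSS-Guide2, beside 9.33% of all genes tested falling along the line and 5.99% at that step. None was called from NC to eHDAC6 with the 4 control libraries. With all 12, 1 rose and 6 fell along the line, 3 rose and 3 fell from NC to eHDAC6, and 3 fell at the last step. The median slope of the list was -0.0385 per log2 unit of GATA1 lost, beside -0.00172 for all genes tested. In bulk RNA, fewer cells that express a gene and less of its RNA per cell cannot be told apart. KLF1, the zinc-finger activator of late red cell genes, stood at 179, 208, 202 and 180 CPM in NC, 137 to 178 in eHDAC6 (median 164), 154, 136 and 152 with GATA1TSS-Guide1 and 83.1, 80.8 and 71.8 with GATA1TSS-Guide2. All NC libraries lay above all targeted ones, with 179 against 178 CPM at the nearest. The eHDAC6 and GATA1TSS-Guide1 libraries overlapped, and the lowest level lay clear below them. Its last step was a fall of 0.91 on the log2 scale (SE 0.092, edgeR adjusted p = 2.04e-06), against changes of -0.24 (edgeR adjusted p = 0.081) and -0.14 (edgeR adjusted p = 0.549) at the steps before. KLF1 departed from all 4 shapes, and with GATA1TSS-Guide1 it lay 0.38 above the line between eHDAC6 and GATA1TSS-Guide2 (edgeR adjusted p = 0.00836). In the other 8 control libraries it lay at 178 to 239 CPM, and with all 12 its first step was called (-0.36, SE 0.067, edgeR adjusted p = 0.000596).

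LDB1 and EPOR were nearer to a line. LDB1, the adaptor that joins GATA1 complexes and loops enhancers to promoters, stood at 272, 357, 321 and 292 CPM in NC and 273 to 332 in eHDAC6 (median 312). It was at 287, 250 and 249 with GATA1TSS-Guide1 and 193, 188 and 180 with GATA1TSS-Guide2. The NC and eHDAC6 libraries overlapped, and the change per log2 unit of GATA1 lost was -0.26 (SE 0.033, edgeR adjusted p = 1.42e-05). EPOR, the receptor for erythropoietin, stood at 43.6, 47.5, 51.4 and 44.8 CPM in NC, 39.5 to 45.5 in eHDAC6 (median 42.2), 36.7, 37.3 and 33.7 with GATA1TSS-Guide1 and 32.0, 22.1 and 27.6 with GATA1TSS-Guide2. It fell by 0.26 per unit (SE 0.032, edgeR adjusted p = 1.38e-05). NFE2, the subunit of an erythroid and megakaryocyte activator, was level until the end: 355 to 408 CPM over NC, 348 to 388 over eHDAC6, 372 to 379 with GATA1TSS-Guide1 and 302, 234 and 292 with GATA1TSS-Guide2. Its last step was a fall of 0.43 (SE 0.077, edgeR adjusted p = 0.00104). Of 7 progenitor regulators, MEIS1 rose (0.21 per unit, SE 0.041, edgeR adjusted p = 0.0011) and the other tested members were not called along the line.

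The promoters of a chosen few of the falling erythroid genes were searched for the GATA motif in the 250 bases before the RefSeq start (GRCh38.p14). The motif was spelled AGATAA, or with a T first as TGATAA, or with a G last as AGATAG, or with both as TGATAG, on either strand. Of 6 genes with an entry (KLF1, LDB1, EPOR, SPTB, TMOD1 and GYPC), 4 held a match. TAL1 and the heme and iron genes named below were not among the 6, so this is no share of all falling erythroid genes. NFE2 was not matched. The 60 bases around the match are shown for these 4, so that the motif can be seen in genes that differed in shape. With the 4 control libraries EPOR was nearest a line, and KLF1, SPTB and GYPC were nearest a threshold. Capitals mark the match, which reads as the reverse complement of the motif where the motif lies on the other strand.
KLF1 (chr19:12887202-12887261, minus strand, match from 13 bases before the start): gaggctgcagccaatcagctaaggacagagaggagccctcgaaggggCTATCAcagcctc
EPOR (chr19:11384360-11384419, minus strand, match from 78 bases before the start): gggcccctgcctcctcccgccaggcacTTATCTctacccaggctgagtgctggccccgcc
SPTB (chr14:64879917-64879976, minus strand, match from 42 bases before the start): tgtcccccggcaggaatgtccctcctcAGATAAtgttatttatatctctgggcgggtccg
GYPC (chr2:126656067-126656126, plus strand, match from 64 bases before the start): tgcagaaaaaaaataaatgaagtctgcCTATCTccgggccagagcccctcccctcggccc
LDB1 and TMOD1 held no match in this window, which says nothing of binding there. The motif lay in 13.4% of the promoters of all genes tested and in 22.3% of all RefSeq promoters searched. For falling genes the share was 14.7% at the threshold, 11.7% along a line and 14.9% for early saturation. It was 25% (8 of 32 promoters) for genes falling at the step at GATA1TSS-Guide1. For rising genes the shares were 14.6%, 11.4%, 17.4% and 15.3% in the same order of shapes.

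With the 4 control libraries, calls among genes of the red cell membrane and of heme and iron handling were mostly at the lowest level, and with all 12 they were mostly at the first step. Of 12 heme synthesis genes, 5 fell at the last step, among them ALAS2, UROS, CPOX and SLC25A38, and ALAD rose, beside 5.99% falling and 3.63% rising among all genes tested. All 6 that differed between levels were nearest the threshold shape. Of 10 iron genes, 7 fell along the line (9.33% of all genes tested), 4 of the 7 that differed between levels being nearest the threshold. Of 20 membrane genes, SPTB, GYPC and TMOD1 fell along the line. That is 3 of 20 beside the same 9.33%. None of the 9 tested members of a list of globins and a globin chaperone was called along the line. Of that list 3 fell at the last step, where its median was -0.389, after a median of 0.253 at the step before; the medians of all genes tested at these steps were -0.0205 and 0.0156. With all 12 control libraries the median change of the globin list from NC to eHDAC6 was -0.565 in place of -0.0941, all 9 fell at that step, 5 fell along the line and 0 fell at the last step. In that fit 7 heme genes fell and 2 rose at the first step and 1 fell and 1 rose at the last, and 8 fell along the line. Of the membrane genes 10 fell and 1 rose at the first step and 2 fell at the last, and of the iron genes 5 fell at the first and 1 at the last. Over all 9973 genes of that fit, 1486 fell and 1434 rose at the first step, and 87 fell and 93 rose at the last.

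GYPC, the membrane glycoprotein glycophorin C, gave 258, 237, 243 and 251 CPM in NC, 220 to 242 in eHDAC6 (median 228), 243, 243 and 237 with GATA1TSS-Guide1 and 180, 163 and 185 with GATA1TSS-Guide2. The first 3 levels overlapped and the lowest lay clear of them, with a last step of -0.44 (SE 0.063, edgeR adjusted p = 9.74e-05). BLVRB, biliverdin reductase B, stood at 598, 605, 552 and 581 CPM in NC, 497 to 569 in eHDAC6 (median 528), 540, 567 and 541 with GATA1TSS-Guide1 and 403, 334 and 400 with GATA1TSS-Guide2. Its last step was -0.53 (SE 0.072, edgeR adjusted p = 5.9e-05). Both stood in the threshold shape alone. In the other 8 control libraries GYPC lay at 258 to 375 and BLVRB at 457 to 751 CPM, so that with all 12 the first step was also called for both (GYPC -0.39, edgeR adjusted p = 0.00229; BLVRB -0.22, edgeR adjusted p = 0.024). SPTB, the spectrin beta chain of red cells, fell at both the first step (-0.30, SE 0.066, edgeR adjusted p = 0.0205) and the last (-0.61, SE 0.086, edgeR adjusted p = 9.22e-05), from 114 to 144 CPM in NC to 67.7 to 79.1 with GATA1TSS-Guide2. TMOD1, which caps the actin of the red cell skeleton, was nearest a line (-0.17 per log2 unit of GATA1 lost, SE 0.023, edgeR adjusted p = 3.15e-05); its exons overlap TSTD2 on the opposite strand.

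Among the largest falls of the threshold shape were genes of low level. MS4A3, a membrane protein of myeloid precursors, stood at 10.1, 13.0, 5.30 and 6.85 CPM in NC, 5.24 to 10.0 in eHDAC6 (median 7.11), 9.40, 4.6 and 7.38 with GATA1TSS-Guide1 and 2.11, 1.35 and 1.77 with GATA1TSS-Guide2. Its last step was -1.93 (SE 0.34, edgeR adjusted p = 0.000847). In the other 8 control libraries, whose GATA1 was at 276 to 391 CPM, it lay at 1.75 to 6.26 CPM with a median of 2.07, which overlaps GATA1TSS-Guide2, and with all 12 its trend was not called (edgeR adjusted p = 0.488). CPZ and LRRTM1 were not called with all 12 either (edgeR adjusted p = 0.472 and 0.922), and TCN1, at 0.641 to 2.48 CPM in those 8 libraries, dropped under the 5 CPM limit. UNC5B, a netrin receptor, kept its call: 22.8 to 52.8 CPM in NC, 13.2 to 39.2 with GATA1TSS-Guide1 and 11.3 in each of the GATA1TSS-Guide2 libraries.

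Of the rises at the lowest level, FCRLB, an Fc receptor-like protein, stood at 4.84, 3.70, 5.23 and 7.22 CPM in NC, 3.95 to 6.38 in eHDAC6 (median 5.56), 6.01, 7 and 6.65 with GATA1TSS-Guide1 and 13.7, 11.3 and 12.9 with GATA1TSS-Guide2. Its last step was 0.97 (SE 0.19, edgeR adjusted p = 0.00191). TRIM22, an interferon-induced ubiquitin ligase, rose at the last step by 1.12 (SE 0.17, edgeR adjusted p = 0.000148), from 4.63, 5.92 and 5.39 to 10.2, 13.1 and 12 CPM. It also rose at the first step (0.58, SE 0.15, edgeR adjusted p = 0.0488), from 3.40 to 4.84 CPM in NC to 5.09 to 7.82 in eHDAC6, and by 1.09 with all 12 control libraries (SE 0.20, edgeR adjusted p = 0.000552). It was the only one of 5 tested interferon genes to be called along the line. LINC01094, IQUB and GPRC5C kept their calls with all 12 control libraries (edgeR adjusted p = 0.00771, 0.00823 and 0.000179) and ANKRD55 did not (edgeR adjusted p = 0.102).

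Genes of the integrated stress response, which acts through ATF4 and supplies amino acids, fell as GATA1 fell, but not at every step. From eHDAC6 to GATA1TSS-Guide1 the list's median change was 0.00445, and 0 of its 22 tested members were called. Along the line 19 of 22 fell and none rose, with 12 nearest the line, beside 9.33% falling among all genes tested. The list's median was -0.32 in eHDAC6, -0.306 with GATA1TSS-Guide1 and -0.786 with GATA1TSS-Guide2, all against NC, and 11 members fell over the targeted libraries alone. Of 17 cytosolic aminoacyl-tRNA synthetases, which load amino acids on tRNA and are in part targets of ATF4, 10 fell along the line, beside the same 9.33%. Their median change from eHDAC6 to GATA1TSS-Guide1 was -0.00688. With all 12 control libraries 11 fell at the first step and 0 at the last, in place of 1 and 7. Among all 9973 genes of that fit 1486 and 87 fell at these steps. ASNS, asparagine synthetase, stood at 302, 285, 255 and 266 CPM in NC, 203, 179 and 185 with GATA1TSS-Guide1 and 111, 135 and 116 with GATA1TSS-Guide2. Within eHDAC6 it split by sgRNA, 247, 242 and 276 CPM with eHDAC6-Guide1 and 166, 160 and 150 with eHDAC6-Guide2, whose GATA1 levels were near-equal. Its trend was -0.38 per log2 unit of GATA1 lost (SE 0.057, edgeR adjusted p = 8.86e-05).

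These genes also varied between libraries of like GATA1. Between the 2 eHDAC6 sgRNAs 17 genes (0.171%) differed, 12 lower with eHDAC6-Guide2 (0.121%) and 5 higher (0.0504%). The 12 were ASNS, PSAT1, CTH, DDIT3, DDIT4, SLC7A5, TUBE1 and the synthetases AARS, CARS, GARS, MARS and WARS, and the 5 were SLC4A1, AQP1, HBE1, CA1 and PKLR. The difference was -0.69 for ASNS (SE 0.08, edgeR adjusted p = 0.000214) and -0.64 for PSAT1, the serine synthesis enzyme (SE 0.096, edgeR adjusted p = 0.00293). In the other 8 control libraries ASNS lay at 827 to 1110 CPM and PSAT1 at 322 to 366, above every one of the 16 libraries. With all 12 control libraries 21 of the 22 stress response genes fell from NC to eHDAC6, and 1 at the last step, in place of 3 and 13. Between NC-Guide3 and NC-Guide4 no gene was called by edgeR (636 at an unadjusted p under 0.05).

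Cytosolic ribosomal protein genes fell together by small amounts. Of 40 tested, 33 fell along the line and none rose, 25 fell over the targeted libraries alone (9.33% and 7.89% of all genes tested), and with all 12 control libraries 33 fell. With the 4 control libraries none was called at the first step and RPS16 and RPL29 alone at the last, and with all 12, 2 fell at the first and 0 at the last. The list's median was -0.0439 in eHDAC6, -0.171 with GATA1TSS-Guide1 and -0.239 with GATA1TSS-Guide2 against NC, and of 22 members that differed between levels 17 were nearest the line. RPS12 stood at 1430, 1340, 1290 and 1420 CPM in NC, 1240 to 1430 in eHDAC6 (median 1350), 1150, 1190 and 1230 with GATA1TSS-Guide1 and 1080, 1010 and 1070 with GATA1TSS-Guide2. The targeted levels lay in order without overlap. It fell by 0.14 per log2 unit of GATA1 lost (SE 0.021, edgeR adjusted p = 6.25e-05). Ribosomal protein genes have many close copies, which makes their counts uncertain.

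**Figure D4:**
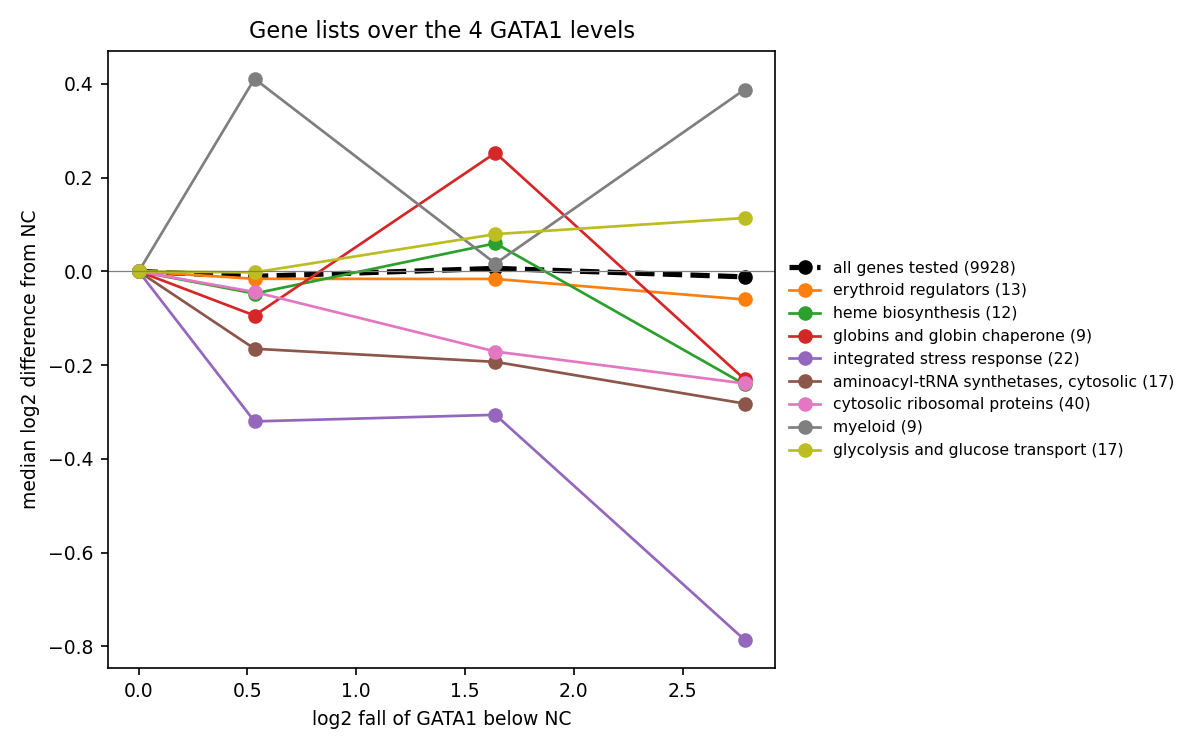
Median log2 difference from NC of the members of 8 gene lists and of all genes tested (dashed), against the log2 fall of GATA1 below NC at the 4 levels; the number of tested members is in brackets. Stress response genes end at -0.786 and ribosomal protein genes at -0.239, while the myeloid list is at 0.411, 0.0168 and 0.388 and all genes tested stay near 0.

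Early saturation was the nearest shape for 236 genes, 128 higher and 108 lower at GATA1TSS-Guide2 than in NC. RYBP, a Polycomb subunit, stood at 76.2, 82.2, 65.2 and 72.2 CPM in NC, 47.1 to 60.1 in eHDAC6 (median 54.9), 59.5, 46.7 and 59.6 with GATA1TSS-Guide1 and 49.3, 47.2 and 45.0 with GATA1TSS-Guide2. All targeted libraries were below all NC libraries. The first step was -0.46 (SE 0.083, edgeR adjusted p = 0.00445) and the next ones 0.04 (edgeR adjusted p = 0.927) and -0.23 (edgeR adjusted p = 0.183). The other 8 control libraries lay at 71.4 to 88.0 CPM, and with all 12 the first step was -0.50 (SE 0.069, edgeR adjusted p = 3.95e-05). PMP22, a myelin protein also found outside nerve, and CBX2, another Polycomb subunit, were called at the first step as well, the former lower (-0.55, SE 0.12, edgeR adjusted p = 0.0155) and the latter higher (0.53, SE 0.14, edgeR adjusted p = 0.0488). The call of CBX2 was lost in 17 of its alternatives and kept in 8 (highest edgeR adjusted p = 0.219), and that of PMP22 was lost in 3 and kept in 22 (highest 0.222).

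Other genes lay off the line, and 7 genes (0.0705%) had steps called in opposite directions. eHDAC6 lay off the line between NC and GATA1TSS-Guide1 for 131 genes (1.32%), 86 above it (0.866%) and 45 below (0.453%). GATA1TSS-Guide1 lay off the line between eHDAC6 and GATA1TSS-Guide2 for 117 genes (1.18%), 52 above (0.524%) and 65 below (0.655%). That count was 11 with all 12 control libraries, 139 with no control library, and 37 to 183 with single libraries left out, the lowest without GATA1TSS-Guide1 replicate 3. CALB1, the calcium-binding protein calbindin, stood at 3.73, 5.77, 5.01 and 3.76 CPM in NC, 10.5 to 23.2 in eHDAC6 (median 16.2), 10.7, 15.3 and 13.3 with GATA1TSS-Guide1 and 36.0, 34.3 and 33.8 with GATA1TSS-Guide2. It rose by 1.82 at the first step (SE 0.19, edgeR adjusted p = 1.57e-05) and by 1.41 at the last (SE 0.19, edgeR adjusted p = 7.2e-05), with -0.30 between them (edgeR adjusted p = 0.572). The other 8 control libraries lay at 4.27 to 9.25 CPM, below every targeted library.

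Myeloid genes were among those off the line. The list's median was 0.411 from NC to eHDAC6, -0.406 from there to GATA1TSS-Guide1 and 0.462 to GATA1TSS-Guide2; 4 of 9 (SPI1, CD68, AIF1 and LAPTM5) rose at the first step, CD68 fell at the second, and 5 (SPI1, LYZ, TYROBP, CD68 and AIF1) rose at the last. Among all genes tested 0.967% rose at the first step, 0.0705% fell at the second and 3.63% rose at the last. With all 12 control libraries 6 rose at the first step, where the median was 0.689, and 3 at the last. The first-step call of SPI1 was lost in 9 alternatives and kept in 16, and that of AIF1 lost in 1 and kept in 24. CD68, a lysosomal membrane protein of macrophages, stood at 91.5, 87.8, 90.4 and 90.3 CPM in NC, 115 to 125 in eHDAC6 (median 119), 97.7, 98.9 and 96.1 with GATA1TSS-Guide1 and 107, 112 and 119 with GATA1TSS-Guide2. The NC, GATA1TSS-Guide1 and GATA1TSS-Guide2 libraries did not overlap one another, and eHDAC6 overlapped GATA1TSS-Guide2 alone. CORO1A, an actin-binding protein of white blood cells, stood at 30.1, 24.0, 31.7 and 34.8 CPM in NC, 37.7 to 46.3 in eHDAC6 (median 41.2), 31.2, 28.5 and 30.8 with GATA1TSS-Guide1 and 67.4, 68.4 and 75.7 with GATA1TSS-Guide2; it shares exons with LOC606724. The steps of CORO1A were 0.47 (SE 0.087, edgeR adjusted p = 0.00492), -0.47 (SE 0.094, edgeR adjusted p = 0.0448) and 1.23 (SE 0.11, edgeR adjusted p = 3.95e-07). In the other 8 control libraries CD68 lay at 37.5 to 66.2 and CORO1A at 11.8 to 21.4 CPM, below all 16 libraries. Control libraries thus differed from one another by more than eHDAC6 did from NC. PTPN6 and PLCB2, signalling enzymes of blood cells, were also lower with GATA1TSS-Guide1 than with eHDAC6, with second steps of -0.65 (SE 0.12, edgeR adjusted p = 0.0305) and -0.54 (SE 0.10, edgeR adjusted p = 0.0323). These second-step calls were not stable. That of CORO1A was lost in 15 alternatives and kept in 11, that of PTPN6 lost in 8 and kept in 18, and that of PLCB2 lost in 10 and kept in 16, and all of these were lost with all 12 control libraries. The 2 genes that fell at the second step in that fit were ZBTB1 and LOC102723809, so the call of CD68 was lost there as well. The summed level of 18 myeloid markers was 867 to 1040 CPM in NC, 1170 to 1380 in eHDAC6, 851 to 1100 with GATA1TSS-Guide1 and 1180 to 1270 with GATA1TSS-Guide2, and its part in these results was not tested.

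The 9 genes called between eHDAC6 and GATA1TSS-Guide1 were HDAC6, ZBTB1, LOC102723809, PTPN6, CD68, PLCB2, CORO1A, MT2A and LOC728613. The calls of MT2A and LOC728613 were lost in 14 and 15 alternatives and kept in 12 and 11, while those of ZBTB1 and LOC102723809 were kept in all 26. ZBTB1, a zinc-finger protein of lymphocyte development, was low in the GATA1TSS-Guide1 libraries alone: 8.69, 7.66 and 7.96 CPM, against 17.2 to 22.8 in NC, 17.0 to 23.3 in eHDAC6 and 19.4 to 26.2 with GATA1TSS-Guide2. It fell by 1.38 (SE 0.13, edgeR adjusted p = 1.08e-06) and rose by 1.41 at the next step (SE 0.14, edgeR adjusted p = 2.04e-06). LOC102723809, whose exons overlap ZBTB1 on the opposite strand, did the same (-1.17, SE 0.13, edgeR adjusted p = 1.65e-05; then 1.25, SE 0.15, edgeR adjusted p = 1.13e-05), and without knowing whether strand was used in counting the reads of the pair cannot be told apart. Level and sgRNA cannot be told apart for this gene either, since GATA1TSS-Guide1 is 1 sgRNA.

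HDAC6, the deacetylase gene next to GATA1 (chrX:48660487-48683380 on the plus strand in hg19), was one of the 21 genes that rose in order over the targeted levels (0.47 per log2 unit of GATA1 lost, edgeR adjusted p = 7.43e-07), while its NC level lay between eHDAC6 and GATA1TSS-Guide1. Over the 4 levels it rose by 0.36 per unit (SE 0.041, edgeR adjusted p = 5.59e-06). It stood at 147, 173, 161 and 165 CPM in NC, 123 to 149 in eHDAC6 (median 140), 232, 243 and 214 with GATA1TSS-Guide1 and 296, 250 and 302 with GATA1TSS-Guide2. The 3 targeted levels did not overlap. The steps were -0.23 (SE 0.065, edgeR adjusted p = 0.0835), 0.73 (SE 0.069, edgeR adjusted p = 1.08e-06) and 0.30 (SE 0.081, edgeR adjusted p = 0.0199). The first step was called with all 12 control libraries (-0.34, SE 0.079, edgeR adjusted p = 0.00279). The sgRNA and GATA1 level cannot be told apart for HDAC6.

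The remaining lists are given by their counts along the line. Of the cell cycle inhibitors and D cyclins, CDKN2C rose (0.15 per log2 unit of GATA1 lost, SE 0.024, edgeR adjusted p = 0.000196) and CCND2 fell (-0.28, SE 0.038, edgeR adjusted p = 2.69e-05), with 5 of 9 called along the line. Of 17 genes of glycolysis, PKM and SLC2A3 rose (0.14, SE 0.03, and 0.19, SE 0.03, per unit, edgeR adjusted p = 0.00205 and 0.000217). In the other 8 control libraries CCND2 lay at 114 to 138 and PKM at 497 to 665 CPM. In NC they lay at 81.3 to 94.3 and 695 to 986 CPM, without overlap. CDKN2C and SLC2A3 overlapped NC there (105 to 114 and 137 to 186 CPM). With all 12 the first steps of CCND2 (-0.639, edgeR adjusted p = 0.000232) and PKM (0.428, edgeR adjusted p = 0.00456) were called. Of 10 immediate early genes, JUNB, EGR1 and IER5 rose along the line. Of 5 tested fibroblast and epithelial genes, COL1A1, KRT8, KRT18 and KRT19 rose and EPCAM fell along the line; the exons of KRT8 and KRT18 overlap on opposite strands. The summed level of 9 such markers was 900 to 1240 CPM in NC, 992 to 1160 in eHDAC6, 1130 to 1500 with GATA1TSS-Guide1 and 1350 to 1540 with GATA1TSS-Guide2. Most of it came from KRT8 and KRT18, with means of 458 and 290 CPM in NC. The summed level of 12 lymphocyte markers was 18.8 to 37.5 CPM in NC, 28.5 to 42.9 in eHDAC6, 30.1 to 40.2 with GATA1TSS-Guide1 and 48.1 to 58.9 with GATA1TSS-Guide2. Only 2 of the 12 had a mean of 5 CPM or more. CD3D alone stood at 9.62 to 28.2 CPM in NC and 33.4 to 44.9 with GATA1TSS-Guide2. The sum of 16 megakaryocyte and platelet markers was 142 to 157, 150 to 174, 160 to 163 and 164 to 170 CPM in the same order of levels, so eHDAC6 spanned GATA1TSS-Guide2. The part of these cell types in the results was not tested. The imprinted non-coding RNA H19 stood at 27.6, 12.3, 64.1 and 40.3 CPM in NC, 26.2 to 61.1 in eHDAC6 (median 32.0), 30.6, 110 and 43.0 with GATA1TSS-Guide1 and 194, 238 and 197 with GATA1TSS-Guide2; it overlaps HOTS on the opposite strand, which rose with it. Among 13 cholesterol synthesis genes 1 (FDPS) was called along the line, and among 9 chaperones 1 (DNAJA1). Of 15 S phase genes 3 rose and 1 fell, of 15 genes of G2 and M phase 4 rose, of 7 BCL2 family genes 1 rose and 1 fell, and of 10 MYC and nucleolar genes 3 fell. Of 7 imprinted genes 2 rose and 1 fell. Of 5 megakaryocyte and platelet genes GP6, the collagen receptor of platelets, rose and F2R, a thrombin receptor, fell. These counts stand beside 8.02% rising and 9.33% falling among all genes tested.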

How the data were processed

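Polyadenylated RNA of K562 cells was sequenced by a strand-specific method, per the labels' protocols. The authors deposited raw counts per gene symbol and a file of gene models on hg19; the submitters' processing notes list SAMtools 0.1.19, TopHat2 2.0.8, Picard and Bowtie2 2.1.0 as tools, and how counts were made and whether strand was used is not given in the sources used here. Samples were grouped by their titles. CPM are counts over TMM-scaled totals. Tests used edgeR 4.0.16 (R 4.3.3; TMM scaling, quasi-likelihood F tests, Benjamini-Hochberg adjustment over the 9928 genes, called under 0.05) on the 16 libraries: a line over log2 of the level's mean GATA1 CPM, the 4 level means with their steps, and departure from each shape with 2 contrasts. DESeq2 1.42.0 was an alternative. The scripts were tested on simulated data. Positions are 1-based on hg19 and promoters are RefSeq's on GRCh38.p14. Entries named by dates (21, with 0.198% of the counts) were not named.

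The members, gene lists and tests were chosen with earlier results of these data known. The genes named are HDAC6, the 5 largest rises and 5 largest falls per shape among genes whose departure from it had an unadjusted p of 0.05 or more, up to 5 with opposed steps, 5 off the line at eHDAC6, and up to 4 members per list called along the line; the text takes its genes from these and names others, as said beside them, after their values were seen. Alternatives were all 12 control libraries, other scaling and filters, a replicate block, GATA1 in CPM or per library, counts summed per sgRNA, levels or single libraries left out, and, chosen after seeing the data, counts thinned to the lowest total, single eHDAC6 sgRNAs left out and no control library in the fit. Standard errors of the steps cover the spread between libraries of a level. This takes in the spread between sgRNAs in NC and eHDAC6, but not in the GATA1TSS levels, which have a single sgRNA each. For the line, departures of the levels from it enter as well, and for the comparison of the eHDAC6 sgRNAs only the spread between replicates does. The depth of 4290343 to 23205811 counts per library limits the precision of genes near 5 CPM.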

Additional observations from a re-analysis of the deposited data

Results flagged for a closer look

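In 146 groups of 4 or 6 libraries of the genes named, 4 single libraries lay apart from the rest of their group by a gap that Dixon's test flags, where chance flags about 1 in 20 groups. LOC102723809 stood at 11.8 CPM in eHDAC6-Guide2 replicate 2, against 14.9 to 15.6 in the other eHDAC6 libraries. RAB3IL1 stood at 46.9 CPM in eHDAC6-Guide2 replicate 3, against 38.7 to 40.5. TTYH2 stood at 15.3 CPM in the same library, against 12.3 to 13.1. STEAP3 stood at 52.4 CPM in NC-Guide4 replicate 2, against 46.7 to 47.2 in the other NC libraries.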

How the results depend on the processing

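Counts are of genes under an adjusted p of 0.05 by edgeR unless another tool is named. With all 12 control libraries, 3202 genes differed between levels, 1180 departed from the line, the steps called 2920, 3 and 180, eHDAC6 lay off the line for 1129 and GATA1TSS-Guide1 for 11, and early saturation, the middle step and the threshold took 2130, 66 and 459 genes. With no filter beyond 1 count, 308 departed from the line, the first steps called 250 and 43, eHDAC6 lay off the line for 235, its sgRNAs differed for 76, and GATA1TSS-Guide1 lay off the line for 197. DESeq2 called 292 and 40 at the first and second steps, and counts thinned to the lowest total gave 63 and 3. Without the eHDAC6-Guide1 libraries the second step called 5, and without the eHDAC6-Guide2 libraries the first and second called 34 and 21. With GATA1 in CPM the line over the targeted libraries called 705. Counts summed per sgRNA gave 692 genes on the line and 179 over the targeted levels. Without the GATA1TSS-Guide2 libraries 12 were on the line, and the slope of NFE2 turned from a fall to 0.001156. With a replicate block the second step called 14, the first 107, the last 1074 and the line 1891. The replicate numbers are not shown to pair the samples. Residuals of same-numbered targeted libraries correlated at -0.188 to 0.287 over 18 pairs (median 0.086). Those of different-numbered ones correlated at -0.316 to 0.254 over 36 pairs (median -0.0298).

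Leaving out each library in turn, the line called 1049 to 1848 genes (lowest without GATA1TSS-Guide2 replicate 1), the line over the targeted libraries 789 to 1415 (lowest without GATA1TSS-Guide2 replicate 3), any difference 1179 to 1976, departure from the line 62 (without GATA1TSS-Guide1 replicate 3) to 404 (without NC-Guide3 replicate 3), the first step 53 (without NC-Guide4 replicate 3) to 329 (without NC-Guide3 replicate 3), the second 3 to 22 (highest without GATA1TSS-Guide2 replicate 2), the last 438 (without GATA1TSS-Guide1 replicate 1) to 1111, eHDAC6 off the line 59 to 346, its sgRNAs 5 to 38, and GATA1TSS-Guide1 off the line 37 to 183. Line, early, middle and threshold shapes took 347 to 547, 119 to 365, 61 to 161 and 570 to 1045. The cause of these shifts was not tested, apart from settings with fewer samples or other genes. Among the genes named, DESeq2 kept 67 results on their side of the threshold and lost none, and with all 12 control libraries 58 were kept and 13 lost. Depth limits genes near 5 CPM.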
